A study of Sus scrofa with 40 samples.

Results

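The hamstring (HM) is the muscle group at the back of the hind leg, and its 10 libraries, of 40 in the series, were set against the other 3 cuts weighted equally. Chalu black pigs supplied 4 cuts with 10 libraries each: HM, the back muscle longissimus dorsi (LDM), the trapezius, which spans neck and shoulder (TM), and pork belly (PB). All animals were fasted males by one sire, reared together, and every cut was sampled on the left of the carcass, away from fascia. The groups therefore differ by cut alone as far as the labels go, with no treatment, allele or age given. The comparison asks which genes differ between HM and each of the other cuts in the same direction.

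Skeletal muscles of the limb, back and belly wall form from somites at different levels of the body axis, and many of their cells keep a transcriptional record of that level. HOX genes encode homeodomain transcription factors that lie in clusters, ordered along the chromosome from members used toward the head to members used toward the tail, and the last groups of HOXA and HOXD also pattern the limb from its root to its tip. TBX4 and PITX1 are classical factors of the developing hindlimb. Besides position, muscles differ in their mix of slow oxidative and fast glycolytic fibres and in their vessels, fat and connective tissue. In bulk tissue, fewer cells of a type and less RNA per cell cannot be told apart.

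Total counts ran from 12305913 to 17735722 per library, and from 13301341 to 17122790 in HM. Mitochondrially encoded genes took 9.12% ± 1.53 (SD, n = 10) of the counts in HM, between 4.97% ± 0.827 in LDM and 12.5% ± 1.96 in PB. Muscle genes identified HM as skeletal muscle of mixed fibres, with summed levels of 19427 to 99282 CPM (read count per 1000000 reads of the scaled library total) for the slow fibre list and 31162 to 116447 CPM for the fast fibre list. By correlation with the cut means, 8 HM libraries lay nearest to HM, HM6 lay nearest to TM and HM9 to LDM. TM3 lay nearest to HM and TM7 to LDM. PB1 is titled PB while its tissue field names the longissimus; it lay nearest to PB (r = 0.974, across genes) and was kept there. Libraries are numbered within a cut, but the labels do not tie a number to a pig, so p-values measure the spread between these libraries, which may be technical in part.

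Of 11713 genes tested, 1058 were higher in HM than the mean of the other cuts and 816 were lower (edgeR quasi-likelihood test, Benjamini-Hochberg adjusted p under 0.05). Those are 9.03% and 6.97% of the genes tested, and the median log2 change over all genes was 0.03. The balance of directions was not firm: when mitochondrially encoded genes were removed ahead of scaling, 871 were higher and 1018 lower, so the higher share of the calls moved from 56.5% to 46.1%. Without HM6 and HM9 it was 38.5% (828 higher, 1325 lower). Against LDM 3805 genes passed (32.5%; 16.5% higher and 16.0% lower) and against PB 3232 (27.6%; 14.1% higher and 13.5% lower). Against TM 90 passed (0.768%; 0.359% higher and 0.41% lower), far fewer than against the other cuts. The TM count moved with the setting: it was 52 without TM2, 52 without TM4 and 135 without HM6, and 199 with DESeq2, 213 with the library number as a block and 312 with limma-voom.

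In all 3 comparisons 43 genes passed in the same direction, 0.367% of those tested, with 19 higher in HM (0.162%) and 24 lower (0.205%). These comparisons share the 10 HM libraries, and the count cannot exceed the 90 genes of the TM comparison. It was 27 without TM4 and 69 without HM9, which are the lowest and highest values when single libraries are left out. The higher genes were 12 without TM4, 12 without TM8 and 32 without PB8, and the lower genes were 15 without TM4 and 49 without HM9. Without both HM6 and HM9 it was 60 (23 higher, 37 lower), and without HM6, HM9, TM3 and TM7 it was 51 (21 higher, 30 lower). At least a 2-fold change in each comparison was met by 25 of the 43 genes (0.213%), 14 higher (0.12%) and 11 lower (0.0939%). In 5 genes (0.0427%) no HM library overlapped any of the 30 others: HOXA13, HOXA11 and HOXC11 lay above (0.0256%), and IRX3 and SLC66A2 below (0.0171%).

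Posterior HOX genes set HM apart most widely. HOXA13, HOXA11 and HOXC11, members toward the posterior end of their clusters, were read in every HM library and were near 0 elsewhere. The HOXC members beyond HOXC11 did not share this: HOXC13 had 1 read in HM and 0 in the other cuts, and HOXC12 had 0 in every cut. HOXA13 (ENSSSCG00000029666) lies on chromosome 18 from 45373440 to 45380300 in Sscrofa11.1. In HM it ran from 7.2 CPM in HM3 to 26.9 CPM in HM7, with a median of 14.3. No read fell on it in LDM or TM, and PB held 9 reads, with the highest level at 0.386 CPM in PB10. HM6 and HM9, whose whole profiles lay nearest to TM and LDM, were within this range too, so all 10 HM libraries stood clear of the 30 others. The 2310 HM reads put HOXA13 at least 791-fold higher than LDM and at least 784-fold higher than TM, with the floor set at 3 counts per cut. Against PB the ratio was 245, with a 95% counting interval of 129 to 536, and without PB10 it was 496 (194 to 1823). Intervals and floors cover counting error only.

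HOXA11 lies 8.27 kb from HOXA13 on chromosome 18, from 45388574 to 45392573. Its HM level ran from 4.07 CPM in HM5 to 8.93 CPM in HM8, with a median of 6.80. The highest library elsewhere was PB10 at 0.540 CPM, so the groups did not overlap. The 1075 HM reads compare with 7 in LDM, 2 in TM and 7 in PB. The ratio was 158 (76.3 to 393) over LDM, 547 (151 to 4525) over TM and 147 (70.9 to 365) over PB. Single libraries supply most of those few reads: without LDM4 the LDM ratio was 489, and without TM6 or PB10 the gene was at least 331-fold and at least 308-fold higher. A gene on the other strand, with 18 reads in all 40 libraries, overlaps HOXA11.

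HOXC11 (chromosome 5, from 19185746 to 19189023) ran from 3.80 CPM in HM3 to 11.8 CPM in HM8, with a median of 7.4. The next library was LDM4 at 1.02 CPM, again below every HM library. The ratio of the 1206 HM reads was 45.9 (31.4 to 69.9) over LDM, 409 (140 to 1988) over TM and 128 (67.1 to 280) over PB. It was 99.8 without LDM4, 1115 without TM6, 205 without PB2 and 208 without PB7. In the fit, adjusted p was 1.29e-08, 1.04e-10 and 6.09e-10 for HOXC11 against LDM, TM and PB. For HOXA11 the 3 values were 1.4e-11, 1.61e-12 and 7.21e-12, and for HOXA13 8.82e-11, 6.79e-11 and 1.75e-10. These genes passed the filter on low counts through their HM reads alone, so the values are given as a description.

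**Figure D1:**
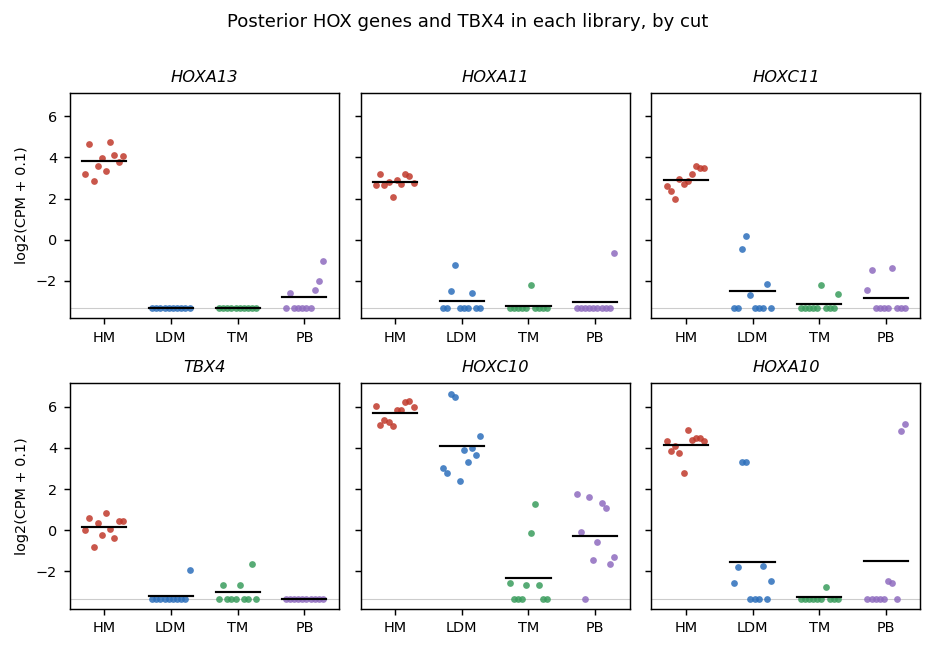
Levels of HOXA13, HOXA11, HOXC11, TBX4, HOXC10 and HOXA10 in each of the 40 libraries, as log2(CPM + 0.1) by cut, 10 points per cut. The HM points of HOXA13, HOXA11, HOXC11 and TBX4 lie above every point of the other cuts, while LDM3 and LDM4 reach HM levels for HOXC10 and PB9 and PB10 do so for HOXA10.

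TBX4, the T-box factor of the developing hindlimb, had too few reads to pass the filter, yet gave the same picture by reads. All 10 HM libraries held it, at 0.467 CPM (HM3) to 1.69 CPM (HM6) with a median of 1.07. The highest library of the other cuts was TM9 at 0.221 CPM, so HM did not overlap them. The 165 HM reads faced 2 in LDM, a ratio of 84.7 (23.1 to 705), 5 in TM, a ratio of 33.6 (14.1 to 105), and none in PB, at least 52.5-fold. Without LDM10 the LDM bound was at least 51.3-fold, and without TM9 the TM ratio was 76.3. In a fit without the filter TBX4 was higher against every cut, as were 0.104% of its 17387 genes, with a log2 change of 4.76 ± 0.60 (SE, adjusted p = 6.2e-06) over TM. PITX1, a homeobox gene of the developing hindlimb, did not share that pattern. It had 45 reads in HM, 3 in LDM, 37 in TM and 214 in PB, with PB5 at 7.06 CPM. Its unfiltered log2 change was -2.63 (adjusted p = 0.0284) against PB, so it was lower in HM than in PB, as were 9.06% of the genes in that fit, and adjusted p was 0.0533 against LDM.

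Within both clusters the posterior pattern thinned out toward the middle members. HOXC10, next to HOXC11, ran from 33.6 to 78.9 CPM in HM (median 57.8), with a log2 change of 7.2 over TM (adjusted p = 5.02e-08) and 5.42 over PB (3.88e-07). Against LDM it was 0.93 (adjusted p = 0.2). LDM held a median of 13.7 CPM, and LDM3 and LDM4 reached 100.02 and 89.9 CPM, above all HM libraries. HOXA10 ran from 6.87 to 28.9 CPM in HM (median 19.9) and had 1 read in TM. It passed against LDM (log2 3.20, adjusted p = 0.0155) and TM (adjusted p = 0.000721), but not against PB (1.53, adjusted p = 0.236), where PB9 and PB10 held 27.8 and 36.3 CPM and the PB median was 0 CPM. HOXA9 showed the same libraries: HM ran from 19.3 to 59.8 CPM (median 41.0), LDM3 and LDM4 stood at 29.8 and 27.6 CPM against an LDM median of 0.969, and PB9 and PB10 at 149.9 and 78.4 CPM against a PB median of 0.600. HOXA9 passed against LDM (2.64, adjusted p = 0.0351) and TM (8.11, adjusted p = 0.000721), and not against PB (0.81, adjusted p = 0.548). HOXA7 passed against LDM (1.22) and TM (2.50), and HOXA5 against TM (1.11) and PB (0.72).

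Of the HOXC members used farther forward, HOXC8, HOXC6 and HOXC5 were lower in HM than in each other cut, the opposite direction to HOXC11, and HOXC9 and HOXC4 did not differ from every cut. HOXC8 lies 32.7 kb from HOXC11 on chromosome 5. HOXC8 (from 19221760 to 19225846) held 0.519 to 1.23 CPM in HM, with a median of 0.708. LDM held 20.4 to 37.0 CPM with a median of 29.0, so HM and LDM did not overlap. TM ran from 0.0601 to 33.2 CPM (median 6.34) and PB from 0.512 to 24.8 CPM (median 11.4). TM2, TM9 and PB9 fell below the HM range, and all other libraries lay above it. HOXC8 changed by -5.27 ± 0.62 against LDM, -3.37 ± 0.59 against TM and -3.97 ± 0.60 against PB on the log2 scale (adjusted p = 2.16e-07, 0.000721 and 5.06e-06).

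HOXC6, from 19229871 to 19243512, ran from 0.486 to 3.27 CPM in HM (median 1.28). Its medians were 18.3 CPM in LDM, 14.5 in TM and 8.97 in PB. TM2 (0.721 CPM), TM9 and PB9 (1.75 CPM) again lay in the HM range, and the other 27 libraries above it. HOXC6 changed by -3.87 ± 0.51 against LDM, -3.38 ± 0.50 against TM and -2.91 ± 0.50 against PB on the log2 scale. HOXC5 was the sparsest of the 3, with 23 reads in HM (0 to 0.562 CPM) and medians of 2.32, 4.97 and 2.41 CPM in LDM, TM and PB. Its log2 change against the mean of the other cuts was -4.49 ± 0.62 (adjusted p = 6.48e-06), and -5.14 without HM6. HOXC9, which lies between HOXC8 and HOXC10, was lower in HM than in LDM (-2.20, adjusted p = 0.0011), while the change was 0.02 against TM and -0.61 against PB (adjusted p = 0.995 and 0.383). HOXC4, the foremost HOXC member counted, had 153 reads in HM, 98 in LDM, 370 in TM and 172 in PB. Its log2 change was 0.59 against LDM, -1.20 against TM and -0.41 against PB, and none passed (adjusted p = 0.298, 0.174 and 0.496).

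**Figure D2:**
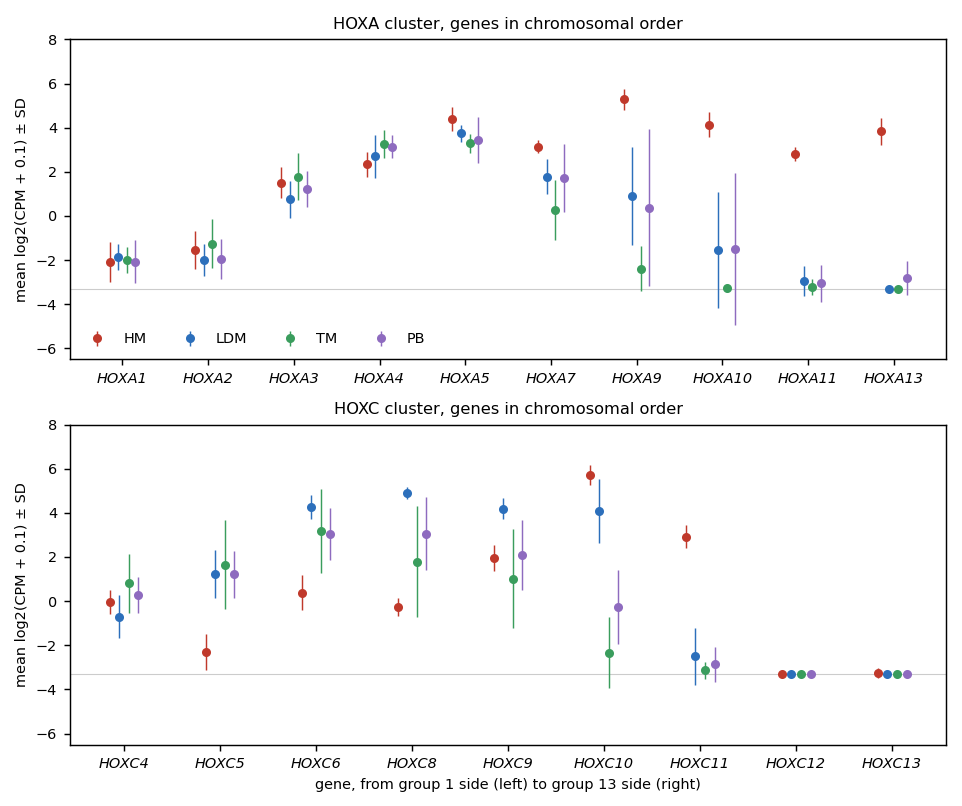
Mean log2(CPM + 0.1) ± SD over 10 libraries of the HOXA and HOXC genes in each cut, in their order along the cluster. The cuts are to be compared within a gene: HM lies above the other cuts at HOXA11, HOXA13 and HOXC11 and below them at HOXC5, HOXC6 and HOXC8.

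Of 12 HOX genes of groups 10 to 13, 5 passed the filter on low counts, and these were higher in HM than the mean of the others (HOXA10, HOXA11, HOXA13, HOXC10 and HOXC11). HOXA11, HOXA13 and HOXC11 passed that filter through their HM reads alone, so the count is a description and carries no support. Without the filter 9 of the 12 could be tested and 7 were higher, HOXD11 and HOXD13 in addition, beside 6.32% of all genes in that fit. HOXD10 and HOXC13 did not pass, and 3 genes had no read. Of 9 tested genes of groups 6 to 9, 2 were higher (HOXA7, HOXA9) and 2 lower (HOXC6, HOXC8), and of 11 tested genes of groups 1 to 5, 1 was higher (HOXA5) and 2 lower (HOXA4, HOXC5). The counts of groups 1 to 9 read against 9.03% higher and 6.97% lower over all genes, and the posterior members were known from earlier results when the groups were drawn. HOXA4 was lost without HM5 or HM6 (adjusted p of up to 0.061). HOXD genes gave few reads at the posterior end and did not pass the filter there. HOXD13 had 19 reads in HM, 3 in LDM and 0 in TM and PB, while HOXD11 had 43 in HM and 41 in LDM, and HOXD10 48 in HM and 108 in LDM. HOXD9 and HOXD8 were lower in HM than in LDM (log2 -1.62 and -1.83, adjusted p = 0.0234 and 0.0152) and did not pass against TM or PB.

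Further position factors differed in both directions. IRX3 and IRX5 are neighbouring Iroquois homeobox genes, 531 kb apart on chromosome 6, and both fell against every cut. IRX3 (from 31046098 to 31048822) ran from 0.137 CPM in HM7 to 1.45 CPM in HM4, with a median of 0.818. Its medians were 5.27 CPM in LDM, 74.1 in TM and 49.7 in PB, and the lowest library outside HM was LDM2 at 1.79 CPM. No library overlapped HM. The log2 change was -3.17 ± 0.64 against LDM, -6.52 ± 0.71 against TM and -5.89 ± 0.69 against PB (adjusted p = 0.000292, 5.02e-08 and 6.56e-08). IRX5 had 33 reads in HM, 0 to 0.593 CPM, and medians of 0.773, 5.27 and 4.94 CPM in LDM, TM and PB. It overlapped with 7 libraries of the other cuts, and its log2 change was -2.22 ± 0.68, -4.47 ± 0.66 and -4.64 ± 0.66 against LDM, TM and PB.

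MEIS1, a TALE homeodomain protein that binds DNA together with HOX proteins, was lower by -1.99 ± 0.42 on the log2 scale (adjusted p = 0.00157). It ran from 0.0684 to 1.11 CPM in HM, with medians of 1.71, 1.69 and 1.45 CPM in LDM, TM and PB. Its adjusted p against TM was 0.0461 and was lost without any 1 of 16 libraries, with 0.0948 without HM5.

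ZNF385A, a zinc finger gene 312 kb from HOXC5 on chromosome 5 (from 19560317 to 19583221), was low as well. HM ran from 1.40 CPM in HM9 to 8.43 CPM in HM6 (median 4.98), against medians of 26.8 CPM in LDM, 48.9 in TM and 53.0 in PB. Only 3 libraries of the other cuts fell inside the HM range, the lowest of them LDM4 at 3.39 CPM. On the log2 scale it changed by -2.64 ± 0.42, -3.47 ± 0.43 and -3.65 ± 0.44 against LDM, TM and PB (adjusted p = 1.79e-05, 1.68e-06 and 9.58e-08). Under limma-voom with quality weights the largest adjusted p of the 3 comparisons was 0.0543 for IRX3, 0.143 for IRX5 and 0.293 for HOXC8, which ends their calls. In the list of limb and axial position factors, 6 of 23 tested members were higher than the mean and 4 lower, beside 9.03% and 6.97% of all genes. SIM2, described below, is a member of this list and was higher than in every cut. SHOX2, a homeobox gene of the proximal limb, rose by 1.40 (adjusted p = 0.000384), from 2.48 CPM in HM5 to 20.2 CPM in HM6 with a median of 4.60, against medians of 1.37 CPM in LDM, 2.68 in TM and 2.19 in PB. It did not pass against TM (0.94, adjusted p = 0.189). Without HM6 3 members were higher.

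**Figure D3:**
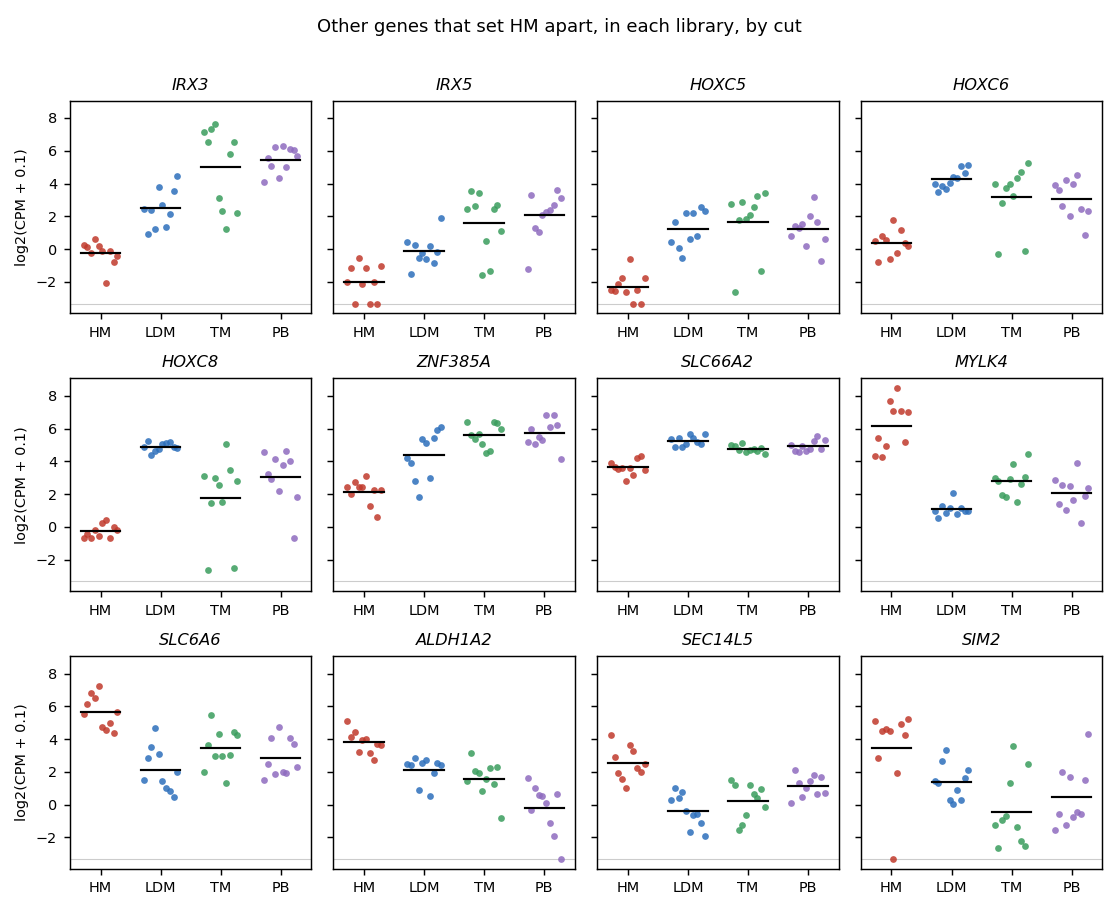
Levels of 12 genes outside the posterior HOX group in each of the 40 libraries, as log2(CPM + 0.1) by cut, 10 points per cut. IRX3 and SLC66A2 are lower in all HM libraries than in all others, MYLK4 and ALDH1A2 overlap with 1 and 2 libraries of the other cuts, and 1 HM library (HM6) has no read of SIM2.

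Outside the position factors, MYLK4 showed the widest rise. It encodes a member of the myosin light chain kinase family, which phosphorylates the regulatory light chain of myosin. MYLK4 (chromosome 7, from 1536316 to 1657419) ran from 19.3 CPM in HM3 to 355.8 CPM in HM7, an 18.5-fold range within HM, with a median of 84.4. LDM reached at most 4.08 CPM, PB 14.6 CPM in PB7 and TM 21.3 CPM in TM10, and TM10 was the only library inside the HM range. Its log2 change was 5.72 ± 0.53 over LDM, 3.77 ± 0.48 over TM and 4.45 ± 0.50 over PB (adjusted p = 1.23e-09, 2.28e-06 and 2.66e-08). WRNIP1 overlaps MYLK4 on the other strand; it had 27355 reads in all libraries and a log2 change of 0.04 (adjusted p = 0.835). Whether counting used the strand is not stated, so values of overlapping genes are uncertain.

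ALDH1A2, the enzyme that makes retinoic acid in many embryonic tissues, ran from 6.62 CPM in HM8 to 34.6 CPM in HM1 (median 13.9). Medians were 5.33 CPM in LDM, 3.29 in TM and 1.2 in PB, and 2 libraries of the other cuts, with a highest value of 8.95 CPM in TM2, lay inside the HM range. The log2 change was 1.70 ± 0.39, 2.10 ± 0.40 and 3.76 ± 0.44 over LDM, TM and PB (adjusted p = 0.00109, 0.00264 and 6.56e-08). SEC14L5, of the SEC14 lipid-binding family, ran from 1.91 CPM in HM5 to 19.1 CPM in HM1 (median 5.05), with medians of 0.618 CPM in LDM, 1.36 in TM and 2.16 in PB. It overlapped with 10 libraries, and its log2 change was 3.05 ± 0.43, 2.38 ± 0.41 and 1.62 ± 0.40. ALDH1A2 and SEC14L5 kept their calls in every alternative.

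SLC6A6, the taurine transporter, ran from 20.8 CPM in HM9 to 148 CPM in HM5 (median 48.2), with medians of 3.31 CPM in LDM, 10.3 in TM and 5.20 in PB. The log2 change was 2.66 ± 0.38 against the mean (adjusted p = 1.33e-05). Against TM it was 2.08 ± 0.53 with an adjusted p of 0.0461, and TM3 (44.4 CPM) was the highest of 4 libraries inside the HM range. That call was lost without any 1 of 16 libraries, with an adjusted p of up to 0.103 without HM5. SLC4A3, an anion exchanger of excitable cells, ran from 9.10 CPM in HM9 to 107.6 CPM in HM10 (median 54.3), with medians of 11.8, 18.7 and 18.7 CPM in LDM, TM and PB and 21 libraries inside the HM range. Its log2 change was 1.85 ± 0.27 against the mean (adjusted p = 1.75e-05). The TM call was lost without TM1, TM4 or TM8 (0.0565 without TM4). SLC3A1, the heavy subunit of a cystine and dibasic amino acid transporter, was higher by 2.20 ± 0.32 at a low level, 0.445 to 2.60 CPM in HM. A 1 CPM filter left SLC3A1 untested, as did the fits of single pairs in at least 1 comparison. Its test thus depends on the filter on low counts, and its values are given as a description. PREPL overlaps SLC3A1 on the other strand with 20432 reads.

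SIM2, a bHLH-PAS transcription factor from the list of position factors, showed the most uneven HM group. HM6 had no read, the other 9 ran from 3.69 to 36.8 CPM, and the HM median was 22.7 CPM. Medians were 2.48 CPM in LDM, 0.374 in TM and 0.611 in PB, with highest values of 10.1 in LDM4, 11.9 in TM6 and 19.5 in PB10, and all 30 libraries lay inside the HM range. The log2 change was 2.80 ± 0.56 against the mean (adjusted p = 0.00108), and the adjusted p against TM, 0.047, rose to 0.0916 without TM2 and passed 0.05 without any 1 of 26 libraries. TRPV4, a calcium-permeable channel, was higher by 1.83 ± 0.37 (adjusted p = 0.00122) at 0.307 to 4.80 CPM in HM, with medians of 0.282, 0.433 and 0.383 CPM in LDM, TM and PB. Its call of all 3 cuts was lost without any 1 of 11 libraries (0.117 without HM3), with the library number as a block (0.0685) and without the libraries of number 8 (0.0565). A 1 CPM filter left TRPV4 untested, as did the fits of single pairs in at least 1 comparison. Its test therefore depends on the filter on low counts, and its values are given as a description.

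Chaperones and sarcomere-linked genes were among the smaller rises. HSPB3, a small heat shock protein of muscle, was higher by 1.10 ± 0.21 (adjusted p = 0.000824), with medians of 59.8 CPM in HM, 30.3 in LDM, 25 in TM and 34.5 in PB. HM6 was the lowest HM library at 16.2 CPM and 29 other libraries lay inside the HM range. BAG2, a co-chaperone of HSP70, was higher by 1.49 ± 0.24 and TRIM55, a sarcomere-bound ubiquitin ligase also called MuRF2, by 1.05 ± 0.22. TRIM55 stood at 161.6 CPM in HM7 and at 38.2 to 73.4 CPM in the other HM libraries. Without HM7 its log2 change against the mean of the other cuts was 0.75 and still passed (adjusted p = 0.0135). The largest adjusted p of TRIM55 against a single cut was then 0.125, so its call against every cut was lost. Its call was also lost without LDM5, LDM7 or LDM9. The BAG2 call was lost without any 1 of 18 libraries (0.0937 without TM8). NFATC2, a transcription factor under calcineurin, was higher by 1.34 ± 0.27, with HM5 at 90.0 CPM against an HM median of 23.5. It was lost without HM5 (0.118), LDM7, LDM9 or TM2.

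Of the other higher genes, VPS72, a subunit of complexes that place the histone variant H2A.Z, was higher by 0.69 ± 0.11 (adjusted p = 5.43e-05). It ran from 136.5 to 272.8 CPM in HM, and kept its call in every alternative. MLLT11, 90.6 kb away on chromosome 4, was higher by 1.62 ± 0.28 and lost its call without any 1 of 16 libraries (0.0962 without HM5). MED19, a subunit of the Mediator complex, had the smallest rise, 0.35 ± 0.07, and lost its call without any 1 of 29 libraries (0.131 without HM9). ZDHHC5 and TMX2 overlap MED19 and were higher by 0.41 and 0.34. C11orf1 was higher by 0.97 ± 0.18, and its gene model overlaps CRYAB on the other strand, whose log2 change was 1.05 (adjusted p = 0.00381). On its own strand C11orf1 overlaps C11orf52 (12706 reads, log2 change 1.11, adjusted p = 0.175). It also overlaps ENSSSCG00000049415 there (813 reads, 1.52, adjusted p = 0.00216), so the value of C11orf1 is uncertain. The C11orf1 call was lost without any 1 of 13 libraries (0.116 without LDM7).

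Among the lower genes outside the position factors, SLC66A2, a membrane protein of the solute carrier group, separated HM without overlap. SLC66A2 (chromosome 6, from 127889528 to 127952225) ran from 7.0 CPM in HM5 to 19.8 CPM in HM9, with a median of 11.9. Medians were 38.4 CPM in LDM, 26.5 in TM and 28.8 in PB, and the lowest other library, TM10, stood at 21.3 CPM, so the groups did not overlap. The log2 change was -1.60 ± 0.15, -1.09 ± 0.15 and -1.29 ± 0.15 against LDM, TM and PB (adjusted p = 1.52e-09, 1.3e-05 and 6.56e-08). The unnamed gene ENSSSCG00000038475, 53.3 kb away, was lower too, by -1.31 ± 0.22, and lost its call when each pair of cuts was fitted alone (0.0754). It ran from 1.84 to 13 CPM in HM, with medians of 25.9, 16.2 and 13.7 CPM in LDM, TM and PB.

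CILP, a matrix protein of cartilage and tendon, was lower by -1.83 ± 0.36 (adjusted p = 0.000868). It ran from 9.44 to 71.2 CPM in HM (median 36.7), with medians of 123 CPM in LDM, 116 in TM and 89.4 in PB, and 6 libraries overlapped. MAP3K7CL was lower by -1.98 ± 0.37, at 1.06 to 2.40 CPM in HM, and its call was lost without TM1, TM4 (0.0682) or TM7. CDH15, M-cadherin of satellite cells and myoblasts, was lower by -0.79 ± 0.15. HM ran from 8.90 to 18.9 CPM (median 11.7), with medians of 25.8, 18.6 and 19.0 CPM in LDM, TM and PB, and the call was lost without HM5, HM7, TM1, TM2 (0.0895) or TM4. The list of satellite cell and myogenic genes, which does not hold CDH15, went the other way. Against the mean, 2 of its 15 tested members were higher and 0 lower, beside 9.03% and 6.97% of all genes. Its median was 0.27, and without HM5 1 member was higher and 1 lower. The share of satellite cells in HM was not tested.

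The remaining 11 lower genes fell by 0.48 (FN3K) to 1.02 (RNF150) on the log2 scale. Signalling genes among them were CASTOR2, a relative of the arginine sensor of mTORC1 (-0.88 ± 0.13), DUSP8, a MAP kinase phosphatase (-0.83 ± 0.13), CNKSR1, a scaffold of RAS signalling (-0.58 ± 0.10), and PPP1R14C, an inhibitor of protein phosphatase 1 (-0.84 ± 0.15). DUSP8 ran from 27.2 to 55.7 CPM in HM, with medians of 56.6, 79.1 and 76.4 CPM in LDM, TM and PB, and 5 libraries overlapped. DUSP8 overlaps TNNT3, fast troponin T, on the other strand; TNNT3 had 4448766 reads in all libraries and a log2 change of 0.06 (adjusted p = 0.866), so the level and change of DUSP8 are uncertain. RNF123 and VWA7 overlap APEH (6512 reads) and VARS1 (42945 reads) on the same strand, and MLLT11 overlaps CDC42SE1 (8027 reads) on the other. CASTOR2 ran from 69.6 to 158 CPM in HM, and CNKSR1 from 35.2 to 59.4 CPM. RNF123 (-0.57 ± 0.11) and RNF150 (-1.02 ± 0.22) are RING finger proteins, and COMMD6 (-0.87 ± 0.15) belongs to a family of endosomal sorting proteins. ARID1B (-0.53 ± 0.08), a SWI/SNF subunit, EIF4E3 (-0.68 ± 0.12), which binds the mRNA cap, FN3K (-0.48 ± 0.11), which removes sugar from glycated proteins, and VWA7 (-0.78 ± 0.19) completed the set. Their calls held in every alternative for COMMD6, DUSP8, CNKSR1, CASTOR2 and RNF123. Single libraries ended the call of ARID1B (TM1, or TM4 with 0.0586), PPP1R14C (TM2 with 0.0592, TM4 or TM10), RNF150 (HM3, HM5, TM4 with 0.0781, or TM8), EIF4E3 (HM2, HM4, HM5, HM7, HM10, TM2 with 0.0879, or TM4), FN3K (HM4, HM5, TM1, TM2 with 0.0895, TM4, PB7 or PB10) and VWA7 (10 libraries, 0.0879 without TM2).

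**Figure D4:**
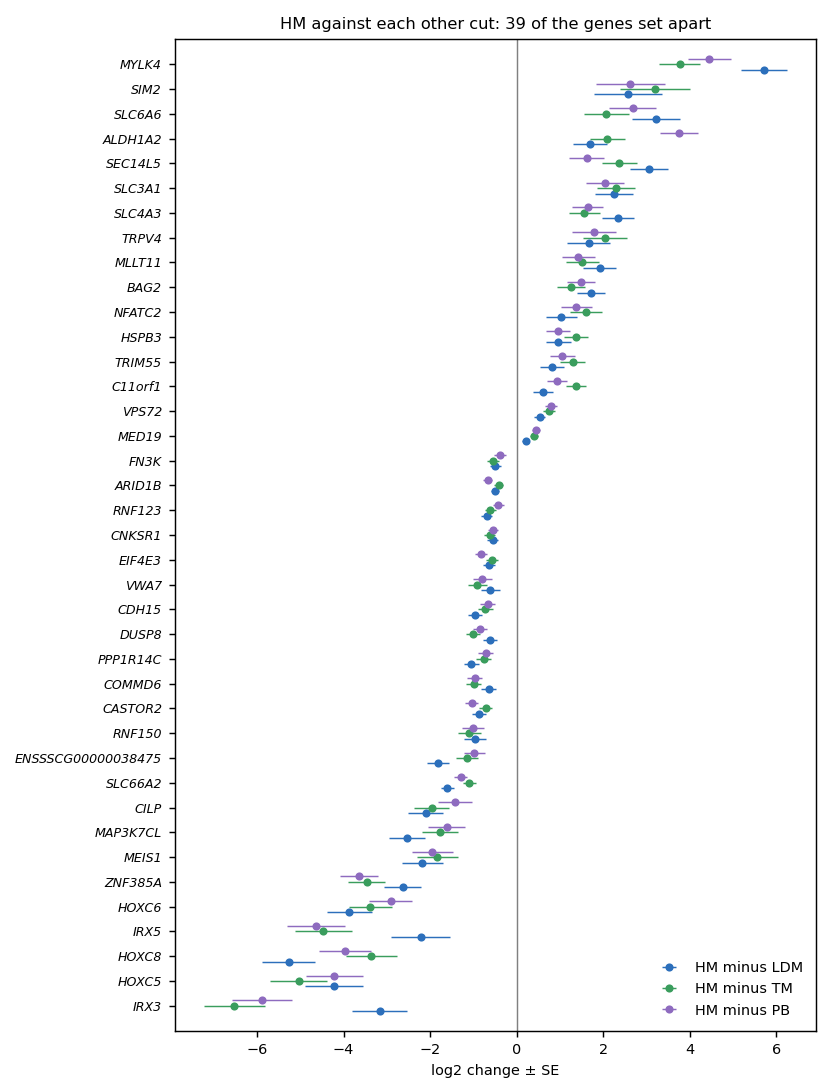
Log2 change ± SE of HM against LDM, TM and PB for 39 of the 43 genes that differed from each cut in the same direction, with HOXA13, HOXA11 and HOXC11, whose other cuts hold almost no reads, among those not drawn. IRX3 reaches the lowest value drawn and MYLK4 the highest, and the 3 changes of a gene share their sign by construction.

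HM libraries were not equally far out. Of the 19 higher genes, HM4 and HM5 lay above all 30 other libraries for 15, and HM6 for 6. Of the 24 lower genes, HM5 lay below all 30 for 15, and HM8 for 3. All 10 HM libraries lay beyond the median of the others for 13 of the 19 and 22 of the 24. These same libraries chose the 43 genes, and the positions were not counted over all genes. The counts therefore compare HM libraries with one another and carry no support for the calls. Near the threshold, MED19 (largest adjusted p of the 3 comparisons 0.0490), SIM2 (0.0470), SLC6A6, BAG2 and MEIS1 (0.0461 each) were just inside. TMEM38B (0.0510), RNPEPL1 (0.0524), HOXA5 (0.0551), ANKRD35 (0.0560) and CGNL1 (0.0601) were just outside. Of the 43 genes, 17 held in all 52 alternatives (8 higher, 9 lower) and 24 whenever 1 library was left out. HOXC5 and SLC3A1 fell short of the 17 because a stricter filter or the fits of single pairs left them untested.

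Beyond the losses given above, fits of each pair alone ended the calls of CDH15 (largest adjusted p 0.0673), PPP1R14C (0.0548), SLC4A3 (0.0542), FN3K (0.0617), MED19 (0.0814) and SIM2 (0.0848). Leaving out the libraries of number 8 ended those of TRIM55 (0.0513), SLC6A6 (0.0690), MED19 (0.139), SIM2 (0.0916), BAG2 (0.0658) and MEIS1 (0.0812). Testing without the filter ended those of SLC6A6 (0.0738), MED19 (0.0718), C11orf1 (0.0541), SIM2 (0.0726), MLLT11 (0.0627), BAG2 (0.0627) and MEIS1 (0.0515). Without HM6 and HM9 the calls of MED19 (0.0844), C11orf1 (0.0800), FN3K (0.0585) and MAP3K7CL (0.0550) ended. Without HM6, HM9, TM3 and TM7 those of ARID1B (0.0506), EIF4E3 (0.0566), C11orf1 (0.0617), SIM2 (0.0594), MLLT11 (0.0501), MAP3K7CL (0.106) and MEIS1 (0.0566) ended. MAP3K7CL was also lost with limma-voom (0.0805), and SIM2 with upper-quartile scaling (0.0539) and with mitochondrially encoded genes removed ahead of scaling (0.0515).

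Gene lists are described by counts against the 9.03% higher and 6.97% lower among all genes tested, and by their median against 0.03. Counts against a single cut read against the shares of that comparison. These were 16.5% higher and 16.0% lower for LDM, 14.1% and 13.5% for PB, and 0.359% and 0.41% for TM. List members named from here on that did not differ from every cut were chosen after their values were seen, as genes that passed against the mean of the other cuts whichever 1 library was left out, except where a library is named. Fibre type genes separated HM from LDM. All 15 tested slow fibre genes were higher in HM than in LDM, and 15 of 18 fast fibre genes were lower (1 higher). Against the mean of the other cuts, 2 slow genes were higher and 0 lower (list median 0.44), and 2 fast genes were higher, MYLK4 and PVALB, and 1 lower (list median -0.34). The slow count was 1 without HM1, 0 without HM2, 4 without HM6, 6 without HM6 and HM9, and 0 when mitochondrially encoded genes were removed ahead of scaling. The lower fast count was 0 without HM2 and 6 without HM9. MYH7, the slow myosin heavy chain, changed by 0.27 (adjusted p = 0.495) against the mean and was higher by 1.43 (adjusted p = 0.000925) over LDM. The fast myosin model MYH4-MYH1-MYH2 had -0.35 (adjusted p = 0.217). PVALB, a calcium buffer of fast fibres, was higher by 1.72 (adjusted p = 0.00708) with HM9 at 107 CPM and an HM median of 8.06, and its adjusted p was 0.172 without HM9.

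Energy genes gave few calls against the mean. Glycolysis and glycogen genes had 14 of 21 lower in HM than in LDM (2 higher), beside 16.0% lower and 16.5% higher of all genes. Against the mean 4 were lower and 1 higher (list median -0.38). PHKG1, the catalytic subunit of muscle phosphorylase kinase, was lower by -0.96 (adjusted p = 0.00703). The lower count was 2 without HM2, 9 without HM9 and 8 without HM6 and HM9. Nuclear genes of oxidative phosphorylation had 4 of 41 higher (median 0.12), among them COX5B, a subunit of cytochrome oxidase (0.40); the count was 1 without HM10 and 8 without TM9. Of 12 mitochondrially encoded genes, 12 were higher than in LDM (16.5% of all genes) and 10 lower than in PB (13.5%), and COX3 alone was higher than the mean (0.35). COX3 was lost without the libraries of number 8 (adjusted p = 0.0976), which left 0 genes, while 2 were higher without HM6, with DESeq2 or with the block, 3 without HM6 and HM9 and 4 with limma-voom; ND2 had 0.18 (adjusted p = 0.414). Of 24 fatty acid oxidation genes 2 were lower, CD36, a fatty acid receptor (-0.57), and SLC25A20, the carnitine carrier (-0.38). Of 19 lipid synthesis genes 3 were higher, FADS1, a desaturase (0.88), ACSS2, which activates acetate (0.55), and LPIN1, a phosphatidate phosphatase (0.52, lost without HM7 with 0.0515); the count was 5 without HM8. In these lists 0 members passed against TM in the main edgeR fit. At an unadjusted p under 0.05 there were 11 of 12 mitochondrially encoded genes (2 passed in DESeq2, 7 in limma-voom), 5 fatty acid oxidation and 4 lipid synthesis genes (1 each in both tools), and 1 gene each of the glycolysis and nuclear oxidative phosphorylation lists (0 in both tools).

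Regulators and structural genes gave few calls as well. Of 28 fibre type regulators, NFATC2 was higher, and SOX6, which represses slow fibre genes (-1.19, adjusted p = 0.00082), and MEF2A, a muscle transcription factor (-0.74), were lower. SOX6 ran from 5.63 CPM in HM2 to 16.8 CPM in HM8 (median 10.9), with medians of 30.1 CPM in LDM, 15.1 in TM and 30.3 in PB, and its change against TM was -0.51 (adjusted p = 0.42). The lower regulators were 5 without HM9 and 6 without TM3. PPARGC1A, a coactivator of mitochondrial genes, had 0.50 (adjusted p = 0.532) and MSTN, which limits muscle growth, -0.07 (adjusted p = 0.907). Sarcomere and Z-disc genes had 3 of 23 higher, among them the chaperone CRYAB (1.05), and 2 lower, NEB, the thin filament ruler nebulin (-0.67), and CMYA5 (-0.78). NEB ran from 3630.1 to 9943 CPM in HM, with a median of 17529 CPM in PB, and its change was -0.02 (adjusted p = 0.974) against TM. The higher sarcomere count was 1 without HM2, and the lower one 5 without LDM5. Of 22 calcium and excitation genes, CACNA1S, the voltage sensor of the T tubule (-0.60), and SYPL2, of the triad junction (-0.69), were lower and 1 was higher; the lower count was 5 without HM9. Ribosomal protein genes had 10 of 63 lower and 1 higher (RPL3, 0.53), with a median of -0.06, and the lower count was 3 without HM10 and 20 without HM9.

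Vessel markers were higher in HM than the mean. Endothelial markers had 7 of 13 higher and 0 lower (median 0.47), led by CDH5, the endothelial cadherin, at 0.80 (adjusted p = 0.000144), with PECAM1 (0.65), ERG (0.57), VWF (0.55) and ESAM (0.53) among them. CDH5 ran from 72.5 to 204 CPM in HM (median 119.8), with medians of 65.1 CPM in LDM, 101.1 in TM and 72.2 in PB. In the list 10 members were higher than in LDM (16.5% of all genes), 5 than in PB (14.1%), and 0 passed against TM in the main edgeR fit. Against TM 1 had an unadjusted p under 0.05, and 0 passed in DESeq2 and limma-voom. Its summed level ran from 468 to 1211 CPM in HM, 393 to 593 in LDM, 396 to 1036 in TM and 389 to 1008 in PB, and these ranges overlap. The count was 5 without HM4, 10 without HM9 and 6 without HM6 and HM9. Smooth muscle and pericyte markers had 7 of 12 higher and 0 lower (median 0.45), 2 without HM6, and their summed levels ran from 8513 to 13243 CPM in HM and 5841 to 16287 CPM in the other cuts. The list includes DES, which muscle fibres express too, so these sums do not measure smooth muscle alone. The highest HM sum was in HM2. ACTA2, smooth muscle actin, was higher by 1.27 (adjusted p = 0.00137, and 0.0402 without HM6), with HM6 at 2341 CPM and the next HM library at 547. The part of vessel cells in the HM differences was not tested.

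**Figure D5:**
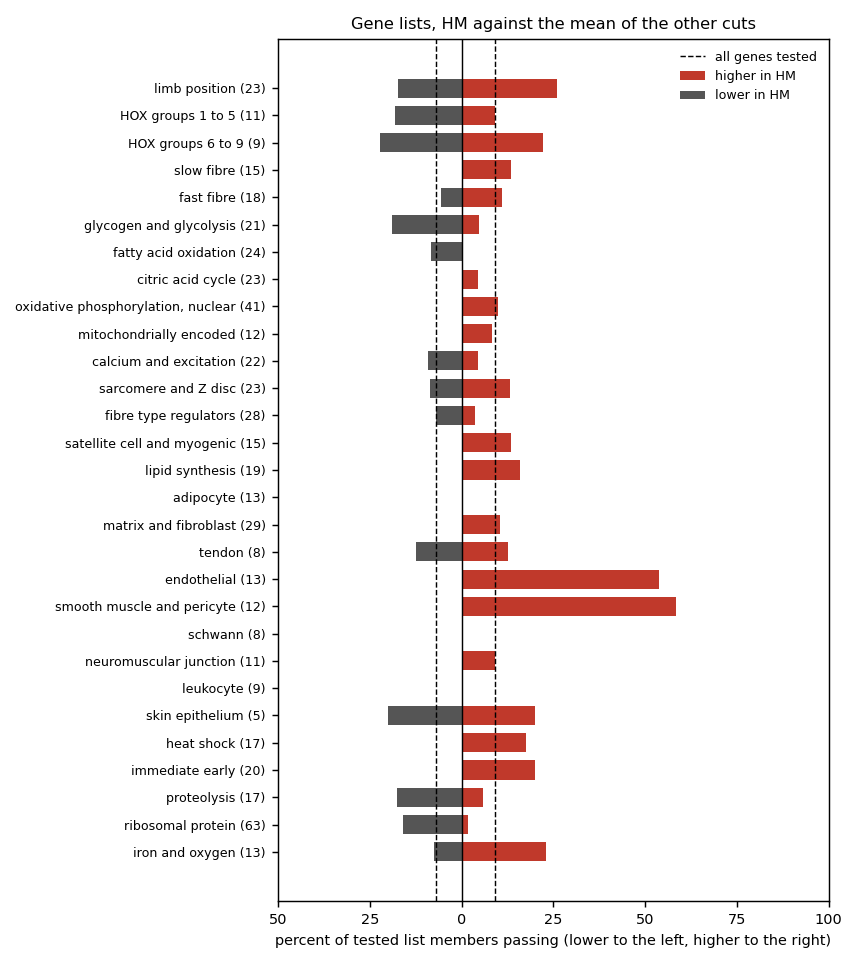
Percent of the tested members of gene lists with at least 5 tested members that were higher or lower in HM than the mean of LDM, TM and PB, with dashed lines at the share of all 11713 genes (9.03% higher, 6.97% lower). HOX groups 10 to 13 are not drawn, since the filter on low counts chose most of their tested members. Smooth muscle (7 of 12) and endothelial markers (7 of 13) have the largest higher shares drawn.

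Fat, immune and nerve markers gave no call against the mean in the main edgeR fit, though some other settings did. Of 13 adipocyte markers 0 passed (median -0.31; ADIPOQ -0.46, adjusted p = 0.537) and 2 had an unadjusted p under 0.05. With the library number as a block 3 were lower, and 1 was lower with DESeq2, with limma-voom, without the libraries of number 8, without HM4 or with mitochondrially encoded genes removed ahead of scaling. Of 9 leukocyte markers 0 passed (median 0.24; PTPRC 0.06, adjusted p = 0.935), 1 had an unadjusted p under 0.05, and 3 were higher without PB8, 3 with limma-voom, 2 without the libraries of number 8 and 0 with DESeq2. Of 8 Schwann cell markers 0 passed (median 0.32), 2 had an unadjusted p under 0.05, and 1 was lower without HM9, without HM6 and HM9 or with limma-voom (0 with DESeq2). Connective tissue genes had 3 of 29 higher, or 5 without PB1: TNC, tenascin C (1.74), and the basement membrane collagens COL4A1 (0.72) and COL15A1 (0.57). TNC ran from 17.6 to 439.9 CPM in HM (median 152), with medians of 17.6, 68.9 and 48.3 CPM in LDM, TM and PB. Of 20 immediate early genes 4 were higher, 0 without HM5 and 8 without PB8. EGR1, an immediate early transcription factor, stood at 5339 CPM in HM5 against 703 CPM in the next HM library, and its log2 change of 2.16 had an adjusted p of 0.339 without HM5. The list summed to 14509 CPM in HM5, against an HM median of 3207. Of 17 heat shock genes 3 were higher, HSPB3 and CRYAB among them, 2 without HM2. Those levels in HM5 stand beside the calls that end without HM5 (among them NFATC2, SLC6A6, MLLT11, MEIS1, CDH15, RNF150, EIF4E3 and FN3K), and their part in them was not tested.

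Other settings moved several list counts against the mean, and the calls over all genes moved too. Over all genes, 1058 were higher and 816 lower in the main fit. With the library number as a block they were 1393 and 1181, and with limma-voom 1709 and 1434. They were 990 and 1149 without the libraries of number 8, 828 and 1325 without HM6 and HM9, and 1019 and 1543 without HM9. With the library number as a block, 8 glycolysis and glycogen genes, 5 fast fibre genes and 6 fibre type regulators were lower, and 8 nuclear oxidative phosphorylation genes, 8 immediate early genes and 5 sarcomere genes were higher. With limma-voom, 11 glycolysis and glycogen genes, 8 fast fibre genes, 7 calcium and excitation genes and 6 regulators were lower, and 6 slow fibre, 9 nuclear oxidative phosphorylation, 9 immediate early, 6 sarcomere, 6 lipid synthesis, 6 connective tissue and 5 heat shock genes were higher. Without the libraries of number 8 the higher slow fibre count was 0 and that of nuclear oxidative phosphorylation 1, and without HM6 and HM9 the smooth muscle count was 4. Without the filter 4 ribosomal protein genes were lower, beside 3.81% of all genes in that fit.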

How the data were processed

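Messenger RNA was sequenced from 4 pork cuts with 10 libraries each, grouped by title. Per the file headers, the authors deposited, per Ensembl gene and library, raw read counts and FPKM. FPKM equalled the count scaled by gene length and library total in 100% of values above 0 (tolerance 0.001), so only counts were tested. Per the submitters' processing notes, cutadapt 1.15, HISAT2 2.0.5, HTSeq 0.9.1 and Sscrofa11.1 were used; the roles and the strand setting are not given in the sources used here. RNA extraction used Trizol and library preparation a KAPA stranded kit, per the labels' protocols. Symbols are those of the table for 14883 of 21280 genes, and 1279 more were found in the given annotation of Sscrofa11.1 by identifier or position (at least 50% reciprocal overlap); 1 model spanning 3 fast myosins is written MYH4-MYH1-MYH2. MB has no line in the table.

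The test was that of edgeR 4.0.16 (R 4.3.3; TMM scaling, filterByExpr by cut, robust quasi-likelihood fit of all 40 libraries, Benjamini-Hochberg adjustment over 11713 genes, threshold 0.05). HM was contrasted with the mean of LDM, TM and PB and with each of them; a gene differs from each cut when all 3 adjusted p pass with the same sign. CPM are counts per 1000000 of the TMM-scaled library total. A count of 0 was set to 3 counts over the cut, and ratios carry exact 95% intervals. Chi-square per gene was at least 29.8 between any libraries of a cut (over genes of 20 counts or more), so no 2 libraries were counted as 1. On simulated counts of 11713 genes with 200 changed in HM, 60% of those changed by log2 1 and 94% of those changed by log2 2 were recovered in all 3 comparisons. The simulated LDM, TM and PB libraries were independent and shared the same mean for each gene. Real cuts differ from one another, so these shares need not carry over.

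The members and gene lists were chosen with earlier results of these data known. Named by rule were the 10 highest and 10 lowest symbols among the genes that differ from each cut (at least 1 CPM on the higher side), up to 3 such members of each list, and 15 fixed genes; further genes that differ from each cut were named after their values were seen. Some genes that these rules name are not reported. Alternatives were RLE and upper-quartile scaling, DESeq2 1.42.0, limma-voom 3.58.1 with quality weights, no filter, a 1 CPM filter, a block by library number, each pair fitted alone, HM6 and HM9 or all libraries of number 8 left out, mitochondrial genes removed ahead of scaling, and the omission of single libraries. A fit without HM6, HM9, TM3 and TM7 was added once the data had been seen.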

Additional observations from a re-analysis of the deposited data

Results flagged for a closer look

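In 5 of 53 genes tested for it, the lowest or highest HM library stood farther from the other HM libraries than Dixon's 95% limit. Chance gives about 1 in 20. Distances were taken on the log2 scale, while CPM are printed here. For SIM2 the distance depends on the value added to a count of 0. SIM2 was at 0 CPM in HM6, with the next HM library at 3.69. HOXA11 was at 4.07 CPM in HM5, with the next at 6.27. IRX3 was at 0.137 CPM in HM7, with the next at 0.488. TRIM55 was at 161.6 CPM in HM7, with the next at 73.4, and CNKSR1 at 59.4 CPM in HM8, with the next at 44.3.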

How the results depend on the processing

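The count of genes for HM against mean of others, 1874, was 3143 with limma-voom, within 1.5 times of it in the other settings that gave one, and ran from 1284 to 2562 with 1 library left out. The 43 genes that differ from each cut were 68 with DESeq2, 140 with limma-voom and 98 with the library number as a block, and 27 to 69 with 1 library left out; of the 43, 43 remained with DESeq2, 38 with limma-voom, 42 with the block, 39 without HM6 and HM9 and at least 27 with 1 library left out. The higher ones were 31, 81 and 51 (12 to 32 with 1 library left out), and the lower ones 37, 59 and 47, and 37 without HM6 and HM9 (15 to 49). Changes of 2-fold in each comparison were 42 with limma-voom and 17 to 30 with 1 library left out. Of 8296 values of single genes, 7761 kept their direction and side of the threshold, 524 lost the call and 11 reversed, none of these 11 a call: MSTN was 0.031 with limma-voom, 0.022 with the block, 0.062 without the libraries of number 8, 0.022 without HM6 and 0.078 without LDM2 (range with 1 library left out -0.29 to 0.078), and PTPRC was below 0 without HM1, HM4, HM5, HM6, LDM7 or LDM9 (range -0.049 to 0.36). The cause of these moves was not tested. Genes lost under limma-voom from the 43 include IRX3 (largest adjusted p 0.0543), HOXC8 (0.293) and IRX5 (0.143). Libraries of the same number correlated over 0.1 in 10 of 10 HM and LDM pairs, 9 of 10 HM and TM pairs and 8 of 10 HM and PB pairs. The median correlations were 0.28, 0.25 and 0.27. Among the 10 numbers of a cut, an HM library correlated best with its own number in 8, 6 and 5 of 10. A shared number is a hint from the data only. The main fit did not use it, so its p-values leave out any pairing by number. With the block 2574 genes passed for HM against mean of others. Depth limits the genes with few reads: TBX4, HOXC8, HOXC5, IRX5 and MEIS1, among others, rest on 165 or fewer HM reads.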
